A study of Homo sapiens with 14 samples.

Results

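BHLHE40, BHLHE41, CLOCK, ARNTL, PER1, PER2, PER3, CRY1, CRY2 and NR1D1 are 10 genes of the circadian clock, taken here by their symbols from the 23106 gene symbols counted in each of 14 RNA-seq libraries. All 10 were listed in every library and all 10 passed the filter on low counts in every comparison below. The libraries hold polyadenylated RNA from PC3, a human prostate cancer cell line, and HCT116, a human colorectal cancer cell line. The cells spent 16 h at 21% O2 (normoxia) or 0.5% O2 (hypoxia), and each condition has 4 biological replicates for PC3 and 3 for HCT116. PC3 was grown in DMEM/Ham's F12 and HCT116 in McCoy's 5a medium, with the same serum and supplements and no genetic change named for either, so that line, medium and library set cannot be told apart in any comparison between the lines. RNA was taken at a single time point, and the hour of harvest and any setting of the cells' rhythm are not given in the sources used here.

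The circadian clock is a loop of transcription factors that turns over about once a day. CLOCK and ARNTL (also called BMAL1), a pair of basic helix-loop-helix PAS proteins, bind E-boxes in DNA and switch on PER and CRY genes, whose proteins return to the nucleus and silence CLOCK and ARNTL. NR1D1 (REV-ERBα) is switched on by the same pair and represses ARNTL, which closes a further loop. BHLHE40 (DEC1) and BHLHE41 (DEC2) are repressors that also bind E-boxes and compete with CLOCK and ARNTL there. The hypoxia-inducible factors (HIF) belong to the same protein family as CLOCK and ARNTL, and BHLHE40 is a known direct target of HIF.

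E-boxes (CACGTG) and the core of the HIF binding site (ACGTG or GCGTG) share letters, since every CACGTG holds ACGTG on each strand. Both were looked for, on both strands, in windows from 250 bases before to 50 after each RefSeq start site (GRCh38.p14). The 10 genes have 14 such windows, because CLOCK, ARNTL, PER3 and CRY2 have a pair of start sites each. CACGTG stood in 3 windows, those of BHLHE40, BHLHE41 and PER1, against 7.26% of the 35116 windows of all genes. These 3 are shown 5′ to 3′ up to the base before the start site, with E-boxes and HIF cores in capitals. BHLHE40 is at chr3:4979187-4979436 on the plus strand, BHLHE41 at chr12:26125038-26125287 on the minus strand and PER1 at chr17:8152405-8152654 on the minus strand.
BHLHE40: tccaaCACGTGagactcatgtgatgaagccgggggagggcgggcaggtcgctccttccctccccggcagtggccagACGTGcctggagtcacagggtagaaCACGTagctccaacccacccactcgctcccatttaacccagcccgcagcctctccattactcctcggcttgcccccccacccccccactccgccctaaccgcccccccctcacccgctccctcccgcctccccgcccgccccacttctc
BHLHE41: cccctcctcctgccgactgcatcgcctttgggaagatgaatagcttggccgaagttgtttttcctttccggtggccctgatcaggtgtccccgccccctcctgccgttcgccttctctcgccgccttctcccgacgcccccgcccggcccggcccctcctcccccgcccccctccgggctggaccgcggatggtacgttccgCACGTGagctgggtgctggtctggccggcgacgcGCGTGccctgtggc
PER1: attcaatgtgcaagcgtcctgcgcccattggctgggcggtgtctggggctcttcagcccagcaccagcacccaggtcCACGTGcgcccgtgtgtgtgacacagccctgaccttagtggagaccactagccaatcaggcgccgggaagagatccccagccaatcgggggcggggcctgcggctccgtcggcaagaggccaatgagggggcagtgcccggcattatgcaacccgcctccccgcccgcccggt

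BHLHE40 has its E-box from -245 to -240, counted from the start base as 0, with further matches to ACGTG at -174 and, on the other strand, at -149. The E-box of BHLHE41 lies closer to the start site, from -48 to -43, with GCGTG at -14. In PER1 the E-box spans -173 to -168. A HIF core in either form was found in 11 of the 14 windows, against 48.4% of all windows, and 4 or more matches, as in BHLHE40 (where the E-box counts as 2 of them) and NR1D1, were in 4.40% of all windows. The windows of PER3 overlap each other and hold the same GCGTG matches, so they are not separate cases. AGGTCA, the site bound by REV-ERB and ROR receptors, was found in 4 windows (PER1, both of CRY2 and that of the downstream start of ARNTL) against 13.8% of all, and the D-box TTATGTAA in 1, that of PER3, against 0.886%. These are matches of letters, which say nothing about binding.

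**Figure D1:**
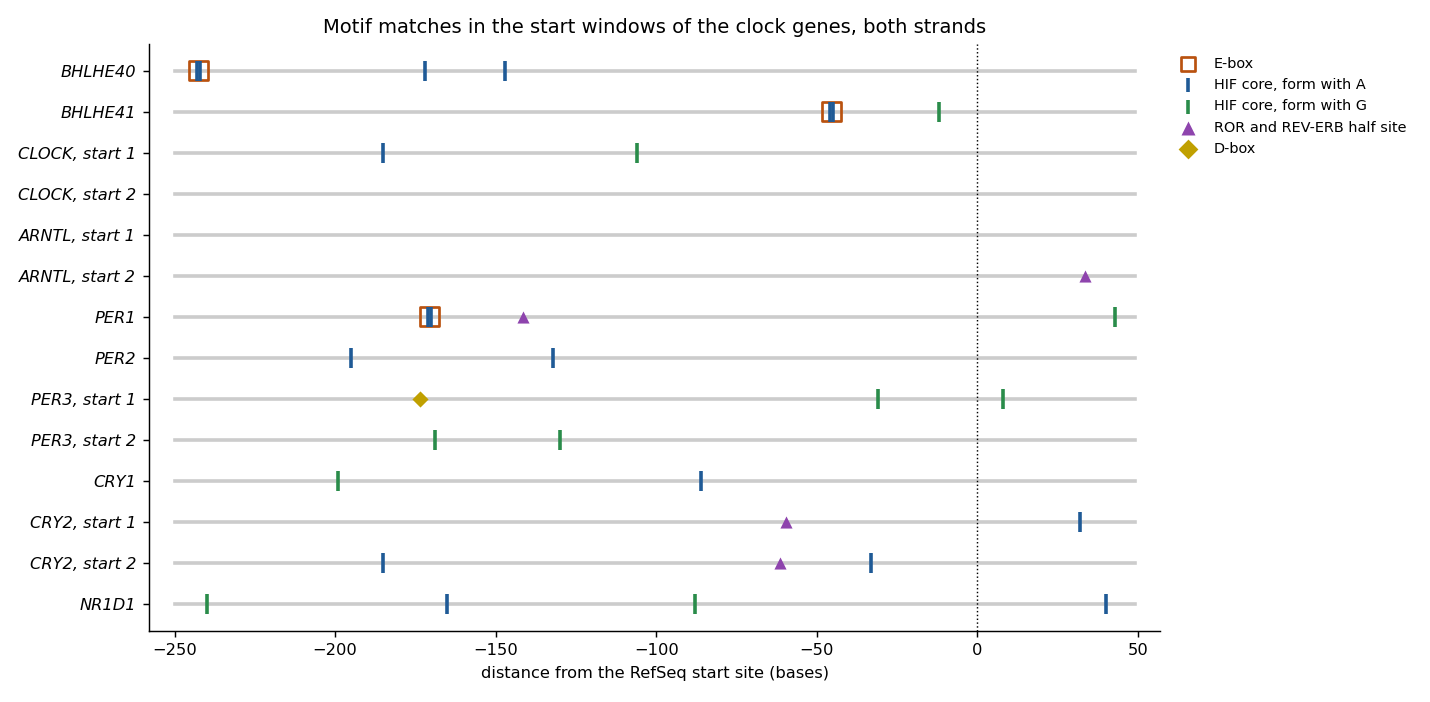
Matches to 5 motifs in the 14 start windows of the 10 clock genes. The x axis is the distance in bases from the RefSeq start site (dotted line), each row is a window, and open squares mark E-boxes. Only BHLHE40, BHLHE41 and PER1 have an E-box, and the windows of the upstream start of CLOCK and of ARNTL have no match to any motif.

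The libraries were deep. Total counts lay between 98021966 and 123935458 in normoxic PC3, 71228454 and 96159803 in hypoxic PC3, 136931675 and 147934177 in normoxic HCT116, and 133067391 and 150630928 in hypoxic HCT116. The lowest count of any of the 10 genes was 146, for PER3 in a hypoxic PC3 library. Levels are given as normalised counts, that is counts over a common library size (CPM) after TMM scaling over all 14 libraries. Fold changes, standard errors and p-values come from the quasi-likelihood test of edgeR. P-values were adjusted over all genes tested by the method of Benjamini and Hochberg, and an adjusted p under 0.05 is the threshold. These are bulk samples, in which fewer cells of a type and less RNA per cell cannot be told apart.

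The labels of the libraries fit marker genes only in part. PC3 libraries expressed HOXB13, a prostate factor, at 61.8 to 92.7 CPM, but KLK3 had 0 counts in each of them. HCT116 libraries expressed the intestinal factor CDX2 at 16.2 to 20.9 CPM, while CDX1, VIL1, CDH17 and LGALS4 were at or below 0.06 CPM. CDX2 had 0 counts in PC3. Over the 4 prostate markers counted, the summed level was 88.8 ± 11.1 CPM (SD, n = 4) in normoxic and 84.96 ± 11.7 in hypoxic PC3, and over all 5 colon markers 17.7 ± 1.43 (SD, n = 3) and 19.9 ± 0.903 in HCT116. The same prostate markers summed to 18.8 ± 0.925 CPM in normoxic and 17.1 ± 0.693 in hypoxic HCT116, where HOXB13 had means of 10.0 and 10.1. In HCT116 the prostate and colon sums were thus close. The colon markers summed to 0.0235 and 0.0271 CPM in normoxic and hypoxic PC3. Keratin KRT8 led the epithelial markers in every group. PTPRC, of leukocytes, stood at 0.18 to 0.79 CPM and PECAM1, of endothelium, at 1.68 to 2.90 in PC3, and COL1A1, of fibroblasts, at 5.95 to 12.4 in both lines. The part of these markers in the results below was not tested. All 6 hypoxia reference genes (NDRG1, PDK1, ANKRD37, VEGFA, CA9 and EGLN3) rose in both lines, from log2 fold changes of 0.65 (VEGFA, adjusted p = 0.0180) to 2.87 (NDRG1) in PC3 and of 1.10 (VEGFA) to 6.03 (CA9) in HCT116. In PC3 the VEGFA call was lost without normoxia replicate 2, 3 or 4 (adjusted p = 0.0605, 0.0688 and 0.0535), and the CA9 call without hypoxia replicate 2 (0.0631) or normoxia replicate 3 (0.0680).

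Of the 10 clock genes, BHLHE40 was the one that rose past the threshold in both lines in the test that left replicate numbers aside, 3.11-fold in PC3 and 9.11-fold in HCT116. In PC3 ARNTL rose as well and none fell. HCT116 had 3 genes higher in hypoxia, BHLHE40, BHLHE41 and CLOCK, and 2 lower, PER3 and CRY1. Among all genes tested in PC3, 6.03% were called higher and 5.29% lower. For HCT116 these shares were 14.6% and 11.3%. At an unadjusted p under 0.05, 3 of the 10 were above 0 (BHLHE40, CLOCK and ARNTL) and 1 below (PER3) in PC3, where 13.6% and 14.1% of all genes were. In HCT116 4 were above 0 (the 3 called genes and PER1) and 2 below, against 20.8% and 17.9% of all genes. DESeq2 called 3 of the 10 higher and 0 lower in PC3, at background counts of 1383 and 1185 of 18719 genes. The median log2 fold change of the 10 was 0.13 in PC3 and 0.25 in HCT116, beside 0.00233 and 0.00178 over all genes tested. Normoxic and hypoxic PC3 libraries of one replicate number were alike in their deviations, though the labels name no pairing. With the number as a block CLOCK and PER1 passed the threshold in PC3 too, so that 4 of the 10 were higher and 0 lower, at background counts of 2125 and 1949 of 14309 genes. In HCT116 both were also higher with the block (PER1 at adjusted p = 0.00731 in edgeR).

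**Figure D2:**
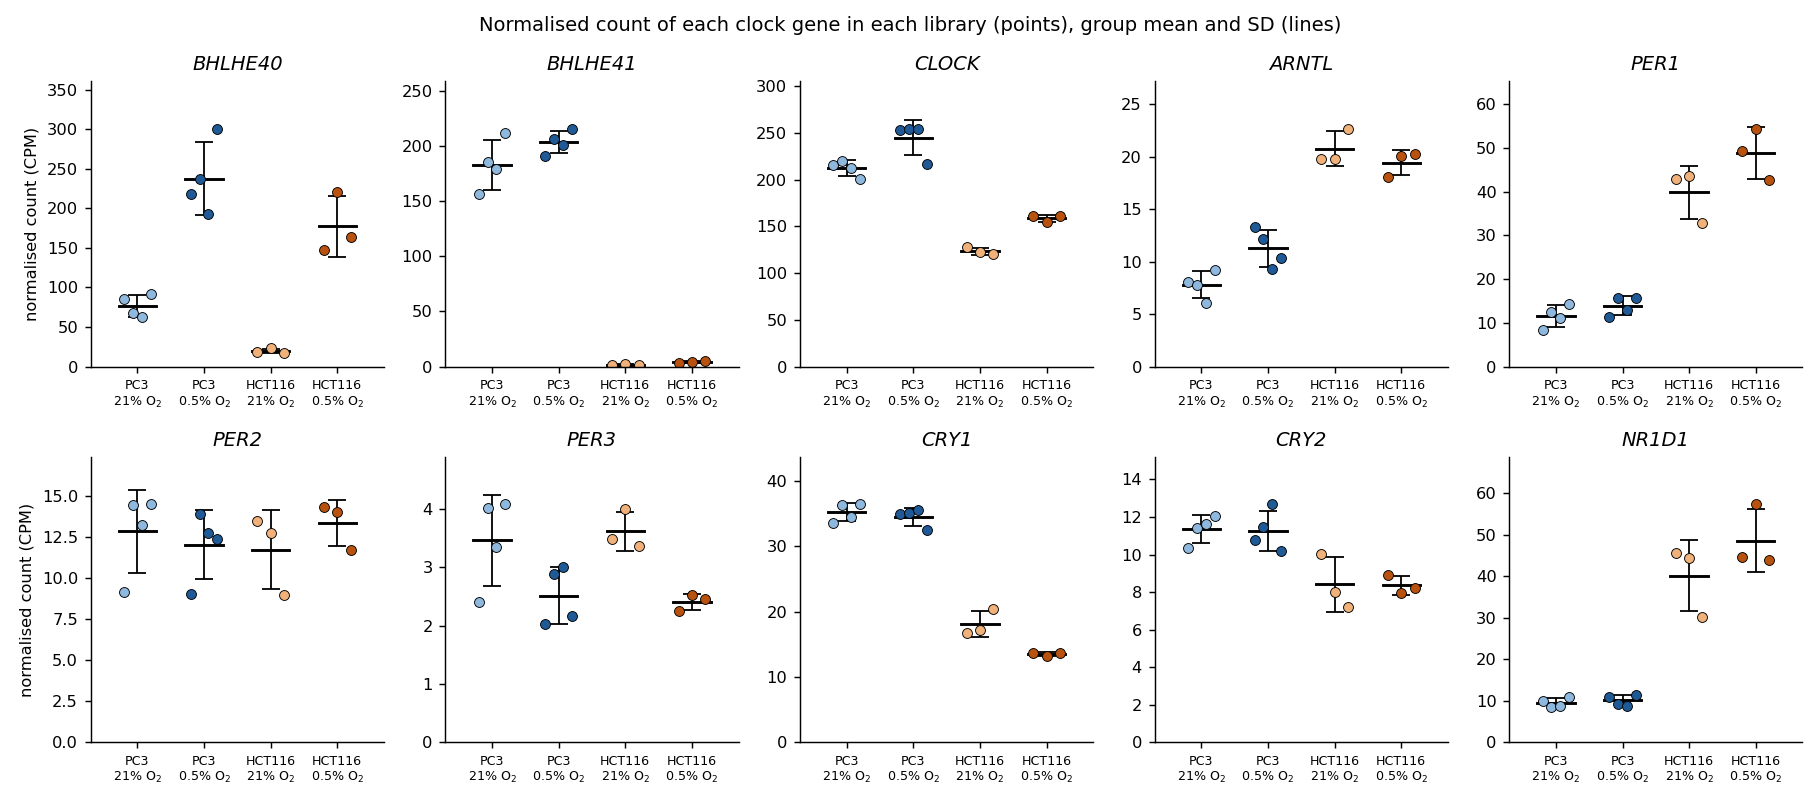
Normalised count (CPM, linear axis from 0) of the 10 clock genes in each of the 14 libraries (points, in order of replicate number), with the mean (thick line) and SD (bars) of each group. BHLHE40 is higher in hypoxia in both lines with no overlap, and BHLHE41 stands at 1.62 to 4.67 CPM in HCT116 against 156 to 216 in PC3.

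BHLHE40 lies on chromosome 3 from 5021122 to 5027008 (GRCh37, plus strand). In PC3 its level was 85.6, 67.1, 62.8 and 91.1 CPM in normoxia and 218, 237, 193 and 301 in hypoxia. HCT116 libraries held 18.9, 22.9 and 17.4 CPM in normoxia and 148, 221 and 163 in hypoxia. Every hypoxic library of a line was thus above every normoxic one, and the lowest hypoxic value in HCT116 was above the highest normoxic value in PC3. Log2 fold changes were 1.64 (SE 0.162, adjusted p = 5.81e-04) in PC3 and 3.19 (SE 0.149, adjusted p = 8.88e-08) in HCT116. By size, the rise ranked 49 of 14309 genes in PC3 and 17 of 14120 in HCT116.

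Normoxic HCT116 cells had the lowest level of BHLHE40, followed by normoxic PC3, hypoxic HCT116 and hypoxic PC3, and only the last pair of groups overlapped. The difference between the lines shrank with hypoxia. PC3 stood above HCT116 by 1.94 on the log2 scale in normoxia (SE 0.154, adjusted p = 1.43e-06) and by 0.43 in hypoxia (SE 0.174, adjusted p = 0.0440). The second difference rests on single libraries, since without PC3 hypoxia replicate 2 or 4 or HCT116 hypoxia replicate 1 or 3 its adjusted p was 0.0718, 0.0957, 0.180 and 0.144. The rise itself differed between the lines, by -1.54 for PC3 minus HCT116 (SE 0.247, adjusted p = 0.00393, test of the interaction of line and oxygen).

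BHLHE41, the paralogue of BHLHE40, is on chromosome 12 from 26272963 to 26277970 (minus strand), and 4.20% of its exon bases also belong to SSPN on the other strand. In HCT116 it stood at 1.70, 2.30 and 1.62 CPM in normoxia and at 3.16, 4.33 and 4.67 in hypoxia, with no overlap. PC3 libraries held 156, 185, 179 and 212 CPM in normoxia and 192, 207, 201 and 216 in hypoxia, and the groups overlapped. The log2 fold change was 1.13 (SE 0.175, adjusted p = 0.00108) in HCT116 and 0.16 (SE 0.0873, adjusted p = 0.265, 95% interval -0.03 to 0.36) in PC3, where hypoxia was higher in 4 of 4 pairs of one replicate number (adjusted p = 0.0572 with the block).

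For BHLHE41 too the response differed between the lines, by -0.96 for PC3 minus HCT116 (SE 0.199, adjusted p = 0.0200). Without HCT116 normoxia replicate 1 or 3 or hypoxia replicate 2 or 3 the adjusted p was 0.0667, 0.0702, 0.0598 and 0.0547. Among the 10 genes, 0 had a more positive and 2 (BHLHE40 and BHLHE41) a more negative response in PC3, where 1.01% and 1.31% of the 15493 genes tested were called in these directions. The gap between the lines in level was the widest of the 10, 6.60 on the log2 scale in normoxia (SE 0.162) and 5.66 in hypoxia (SE 0.158).

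Levels of different genes were compared per kilobase of exon (RPKM, from the CPM values and the union of annotated exons). In normoxic PC3 the level of BHLHE40 was 0.463 ± 0.0990 (SD, n = 4) times that of BHLHE41, and in hypoxic PC3 it was 1.27 ± 0.195 times. All 4 normoxic ratios were below 1 and all 4 hypoxic ones above. In HCT116 BHLHE40 exceeded BHLHE41 in either condition, 11.6 ± 0.645 times (SD, n = 3) in normoxia and 48.6 ± 9.14 times in hypoxia. BHLHE40 was the highest of the 10 genes per kilobase in hypoxia in both lines, at 67.5 ± 13.1 RPKM in PC3 and 50.5 ± 10.98 in HCT116. In normoxia it was second to BHLHE41 in PC3 (21.8 against 47.5 RPKM) and in HCT116 (5.61 RPKM) it came after NR1D1 (15.2), CLOCK (10.7) and PER1 (5.68).

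CLOCK, the histone-acetylating partner of the activating pair, lies on chromosome 4 from 56294070 to 56413076 (minus strand). Its normoxic HCT116 values of 128, 122 and 121 CPM rose to 161, 154 and 161 under hypoxia, by 0.38 on the log2 scale (SE 0.0598, adjusted p = 0.00118). In PC3 it was at 216, 221, 212 and 201 CPM in normoxia and at 254, 254, 255 and 217 in hypoxia. The hypoxic value of replicate 4 was the low one, and it fell within the normoxic range. Here the log2 fold change was 0.21 (SE 0.0751, adjusted p = 0.106), which passed the threshold with the replicate number as a block (adjusted p = 0.0181), with DESeq2 (0.0418), in one fit over both lines (0.0382) and without hypoxia replicate 4 (0.0162). The difference of the responses between the lines did not pass (-0.16, adjusted p = 0.465).

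ARNTL, the other activator, is on chromosome 11 from 13298199 to 13408813 (plus strand). PC3 held 8.06, 7.78, 6.07 and 9.19 CPM in normoxia and 13.3, 12.1, 9.31 and 10.4 in hypoxia, so that the groups lay next to each other without overlap. The log2 fold change was 0.54 (SE 0.151, adjusted p = 0.0472). This call was close to the threshold. It was lost with total-count scaling (adjusted p = 0.0837), without the filter on low counts (0.0528) and with both libraries of replicate 1 left out (0.0942). It was also lost on leaving out any library but hypoxia replicate 3 (up to 0.124). With the replicate number as a block it passed (adjusted p = 0.00771), and hypoxia was higher in 4 of 4 pairs. In HCT116 ARNTL was at 19.8, 19.8 and 22.7 CPM in normoxia and 18.0, 20.03 and 20.2 in hypoxia (log2 fold change -0.08, SE 0.0793, adjusted p = 0.510). The responses differed by 0.63 for PC3 minus HCT116 with an adjusted p of 0.109, which DESeq2 put at 0.0272 and the fit with the replicate block at 0.0132.

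The paralogues that can stand in for CLOCK and ARNTL are NPAS2 and ARNTL2. In PC3 ARNTL2 was 33.1 ± 6.92 times as high per kilobase as ARNTL in normoxia and 25.0 ± 6.03 times in hypoxia, and in HCT116 2.13 ± 0.253 and 2.50 ± 0.386 times. CLOCK exceeded NPAS2 in all 14 libraries, by 2.49 ± 0.509 times in normoxic PC3 and 7.38 ± 0.125 times in normoxic HCT116. With the length of the longest transcript in place of all exons, ARNTL2 was 18.7 and 14.1 times as high as ARNTL in PC3 and 1.21 and 1.41 times in HCT116, above 1 in all 14 libraries on either length.

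Of the PER genes, which encode the inhibitors that close the loop, PER3 fell in HCT116 and the others did not pass the threshold. PER3, on chromosome 1 from 7844351 to 7905237 (plus strand), went from 3.48, 4.00 and 3.37 CPM in normoxia to 2.26, 2.52 and 2.46 in hypoxia, with no overlap. Its log2 fold change in HCT116 was -0.57 (SE 0.121, adjusted p = 0.00623), and in one fit over both lines the adjusted p was 0.0750. In PC3 it went from 2.40, 4.03, 3.35 and 4.08 CPM to 2.02, 2.88, 3.003 and 2.17, which overlapped (log2 fold change -0.45, SE 0.198, adjusted p = 0.172). It was lower in hypoxia in 4 of 4 pairs of one replicate number, with an adjusted p of 0.0546 with the block. PER3 shares 10.7% of its exon bases with UTS2 on the opposite strand, and whether strand was used in counting is not given in the sources used here.

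PER1, on chromosome 17 from 8043790 to 8059824 (minus strand), was at 8.46, 12.5, 11.1 and 14.3 CPM in normoxic PC3 and 11.3, 15.6, 13.02 and 15.7 in hypoxic PC3. Each hypoxic library was above the normoxic library of the same number although the ranges overlapped, and the log2 fold change was 0.26 (SE 0.159, adjusted p = 0.317), or 0.28 with the block (adjusted p = 0.0194). In HCT116 it was at 43.0, 43.6 and 32.8 CPM in normoxia and at 49.3, 54.4 and 42.6 in hypoxia (log2 fold change 0.31, SE 0.114, adjusted p = 0.0638). DESeq2 placed this at an adjusted p of 0.0307. In edgeR it also passed without the filter on low counts (0.0333), with the block (0.00731) and without hypoxia replicate 3 (0.0398). PER2, on chromosome 2, had ranges of 9.16 to 14.5 and 9.02 to 13.9 CPM in normoxic and hypoxic PC3 and of 8.97 to 13.5 and 11.7 to 14.3 in HCT116. All 4 groups overlapped their neighbours in order of level. Its log2 fold changes were -0.09 (95% interval -0.46 to 0.28) and 0.21 (-0.09 to 0.51), and in PC3 hypoxia was lower in 4 of 4 pairs (adjusted p = 0.313 with the block).

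CRY1, the cryptochrome that keeps CLOCK and ARNTL silent, fell in HCT116. The gene is on chromosome 12 from 107385142 to 107487327 (minus strand). Its HCT116 values were 16.7, 17.2 and 20.4 CPM in normoxia and 13.6, 13.2 and 13.6 under hypoxia, which gave a log2 fold change of -0.41 (SE 0.0867, adjusted p = 0.00617). In PC3 it was at 33.6, 36.3, 34.5 and 36.4 CPM in normoxia and 34.9, 35.1, 35.5 and 32.4 in hypoxia, with a log2 fold change of -0.02 and a 95% interval of -0.16 to 0.11. The difference of the responses was 0.40 (SE 0.105, adjusted p = 0.0651 in the edgeR test), and 0.00525 with DESeq2 and 0.0310 with the block. CRY2, the other cryptochrome, on chromosome 11, was at 10.3 to 12.1 CPM in normoxic and 10.2 to 12.7 in hypoxic PC3 and at 7.20 to 10.01 and 7.94 to 8.91 in HCT116. Its groups overlapped within each line, with log2 fold changes of -0.01 (-0.20 to 0.19) in PC3 and 0.01 (-0.24 to 0.26) in HCT116.

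NR1D1, the nuclear receptor that represses ARNTL, lies on chromosome 17 from 38249046 to 38256842 (minus strand), where 18.0% of its exon bases overlap THRA on the other strand. It was at 9.91, 8.57, 8.63 and 10.8 CPM in normoxic PC3 and 10.9, 9.17, 8.79 and 11.4 in hypoxic PC3. HCT116 libraries held 45.7, 44.3 and 30.2 CPM in normoxia and 44.5, 57.3 and 43.9 in hypoxia. The ranges overlapped in both lines, with log2 fold changes of 0.09 (-0.18 to 0.36) in PC3 and 0.30 (-0.02 to 0.61) in HCT116. In PC3 hypoxia was higher in 4 of 4 pairs, with an adjusted p of 0.272 with the block.

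**Figure D3:**
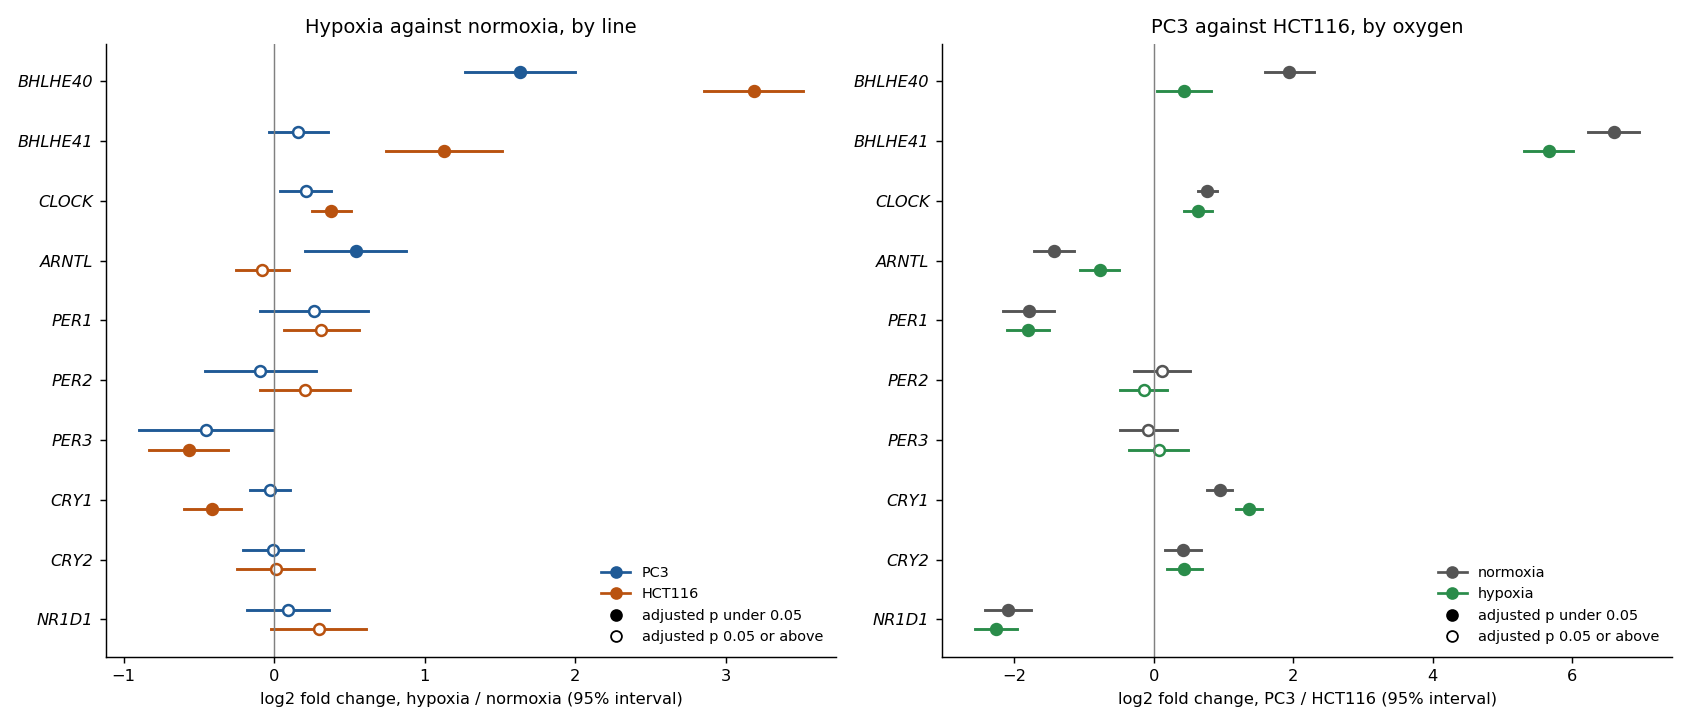
Log2 fold changes of the 10 clock genes with 95% intervals, on the left for hypoxia against normoxia in PC3 (blue) and HCT116 (orange), on the right for PC3 against HCT116 in normoxia (grey) and hypoxia (green). Filled points have an adjusted p under 0.05. BHLHE40 has the largest rise in either line, and BHLHE41 stands 6.60 apart between the lines in normoxia.

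Most of the 10 genes differed between the lines in either condition. BHLHE40, BHLHE41, CLOCK, CRY1 and CRY2 were higher in PC3 and ARNTL, PER1 and NR1D1 lower, in normoxia and in hypoxia, while PER2 and PER3 did not pass the threshold. The background was as high. Of all genes tested, PC3 had 42.9% higher and 40.5% lower than HCT116 in normoxia, and 40.6% and 38.1% in hypoxia, so that 8 of 10 is near the share of all genes. In normoxia NR1D1 had a log2 fold change of -2.09 (SE 0.147) and PER1 of -1.79 (SE 0.162). For ARNTL the log2 fold change was -1.43 (SE 0.128) in normoxia and -0.78 (SE 0.128) in hypoxia. CRY1 was higher in PC3 by 0.94 (SE 0.0804) in normoxia and by 1.36 (SE 0.0813) in hypoxia. In order of level, PER1 and NR1D1 overlapped between normoxia and hypoxia within each line but not between the lines. The levels of BHLHE41 and CLOCK followed the order of normoxic HCT116, hypoxic HCT116 and PC3, where the PC3 groups overlapped. For PER2 and PER3 every group overlapped its neighbours. Per kilobase, the lowest of the 10 in normoxia was PER3 in both lines, at 0.426 ± 0.0963 RPKM in PC3 and 0.445 ± 0.0417 in HCT116. By the length of the longest transcript, BHLHE41 (0.500 RPKM) came below PER3 (0.568) in normoxic HCT116.

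A further list of 10 clock transcription factors and output factors was counted. In PC3, 9 were tested, 2 rose (RORA and NFIL3) and 0 fell. In HCT116, 7 were tested, 1 rose (NFIL3) and 1 fell (NR1D2), near the 14.6% and 11.3% of all genes called there (6.03% and 5.29% in PC3). The medians of those tested were 0.25 and 0.09 on the log2 scale. NFIL3, the repressor that binds D-boxes against DBP, TEF and HLF, went from 13.8, 11.5, 10.3 and 12.4 CPM to 20.6, 17.8, 16.6 and 19.9 in PC3 (log2 fold change 0.65, SE 0.113, adjusted p = 0.00839). In HCT116 it went from 30.5, 31.9 and 33.7 to 45.8, 50.8 and 46.3 CPM (log2 fold change 0.59, SE 0.0705, adjusted p = 1.87e-04). Neither line had an overlap, and NFIL3 was the only gene of the list past the threshold in both.

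RORA, a nuclear receptor that activates ARNTL at the sites where NR1D1 represses it, was scarce. It had 16 to 27 counts in the normoxic and 35 to 56 in the hypoxic PC3 libraries, which is 0.176 ± 0.0223 and 0.529 ± 0.113 CPM (log2 fold change 1.58, SE 0.249, adjusted p = 0.00516). In HCT116 RORA had 0 to 3 counts a library, which is no more than the floor of 3 counts, so that no test was made. RORB had at most 1 count in any library. NR1D2 (REV-ERBβ), the paralogue of NR1D1, fell in HCT116 from 130, 132 and 107 CPM to 96.1, 101 and 71.5 (log2 fold change -0.44, SE 0.123, adjusted p = 0.0237), a call lost without normoxia replicate 2 (adjusted p = 0.0539) or hypoxia replicate 3 (0.0587). In PC3 its log2 fold change was -0.14 (adjusted p = 0.237). C1orf51 (CIART), a further repressor of the loop, stood at 8.43 ± 1.124 CPM in normoxic PC3 but had 1 to 7 counts, 0.0288 ± 0.0227 CPM, in normoxic HCT116. In hypoxia it was at 11.4 ± 1.82 CPM in PC3 (log2 fold change 0.44, SE 0.132, adjusted p = 0.0624) and had 8 to 26 counts, 0.107 ± 0.0700 CPM, in HCT116, where it did not pass the filter on low counts.

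**Figure D4:**
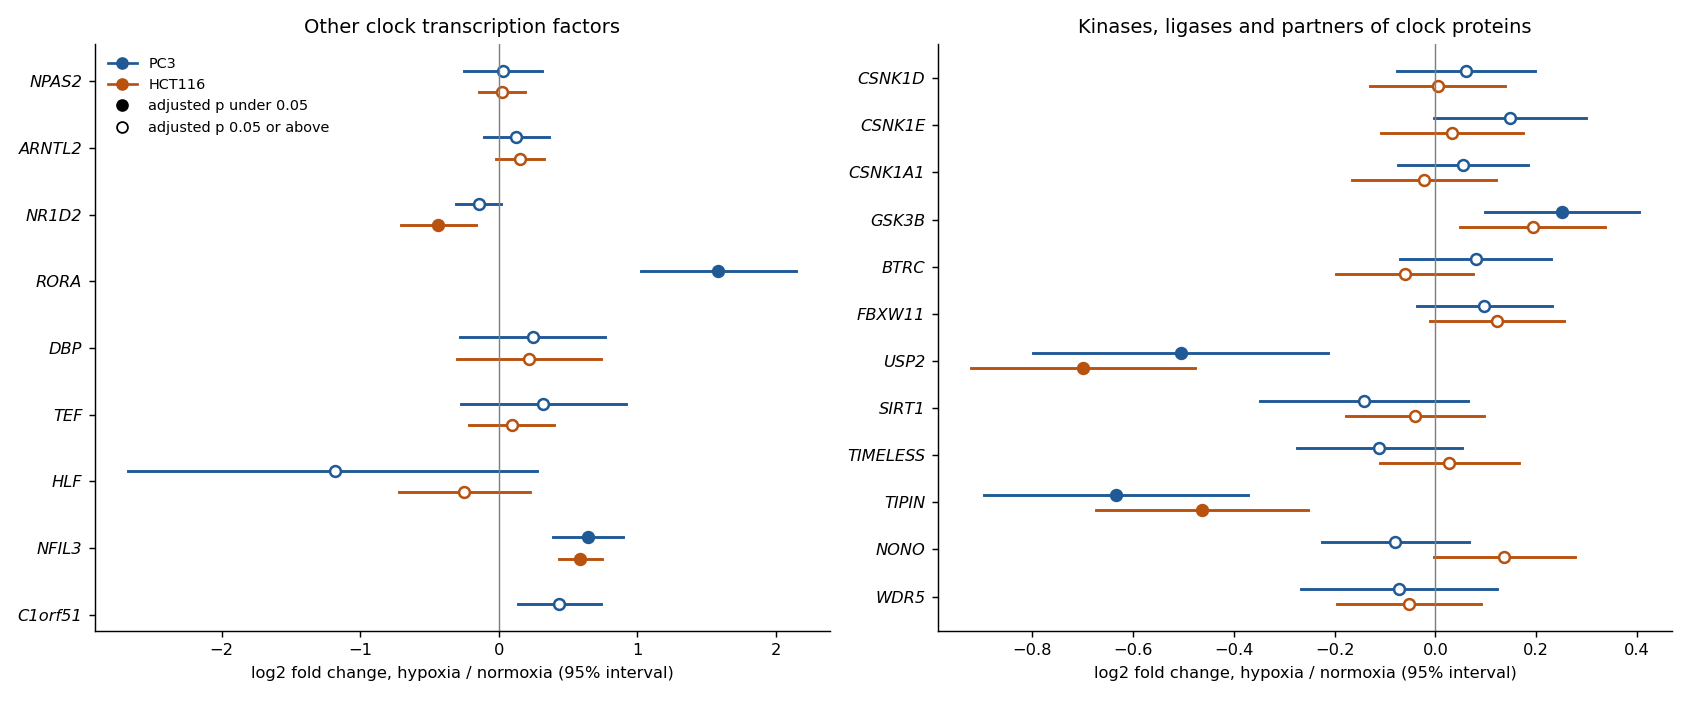
Log2 fold changes, hypoxia against normoxia, with 95% intervals, of the other clock transcription factors (left) and of the kinases, ligases and partners of clock proteins (right) that were tested in PC3 (blue) or HCT116 (orange). Filled points have an adjusted p under 0.05. NFIL3 rose and USP2 and TIPIN fell in both lines, and the PC3 call of USP2 was lost on leaving out most single libraries.

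The second list held 13 kinases, ubiquitin ligases and other partners of clock proteins, of which 12 were tested in each line. In PC3 1 rose (GSK3B) and 2 fell (USP2 and TIPIN), and in HCT116 0 rose and the same 2 fell, with medians of -0.00885 and -0.00924. Of all genes tested, 6.03% rose and 5.29% fell in PC3 and 14.6% and 11.3% in HCT116. USP2, a protease that takes ubiquitin off clock proteins, went from 4.51, 5.66, 4.55 and 5.62 CPM to 3.49, 3.26, 4.20 and 3.29 in PC3 (log2 fold change -0.51, SE 0.131, adjusted p = 0.0371) and from 6.65, 6.78 and 6.14 to 4.10, 3.5998 and 4.21 in HCT116 (-0.70, SE 0.101, adjusted p = 7.05e-04). TIPIN, the partner of TIMELESS at replication forks, had log2 fold changes of -0.63 (SE 0.117, adjusted p = 0.0104) and -0.46 (SE 0.0960, adjusted p = 0.00550). GSK3B, a kinase of clock proteins, rose in PC3 by 0.25 (SE 0.0681, adjusted p = 0.0434). In HCT116 its log2 fold change was 0.19 (SE 0.0657, adjusted p = 0.0508), just outside the threshold. It passed with at least 10 counts in every library (adjusted p = 0.0494) and without hypoxia replicate 1 (0.0366), and the responses of the lines did not differ past it (0.07, 95% interval -0.13 to 0.27, adjusted p = 0.797). The PC3 call of GSK3B was lost with total-count scaling (0.15, adjusted p = 0.187), without the filter on low counts (0.0644) and without both libraries of replicate 1 (0.0574). It was also lost on leaving out any PC3 library but hypoxia replicate 4 (adjusted p up to 0.148). The PC3 call of USP2 was lost on leaving out any library but normoxia replicate 1 or hypoxia replicate 3 (up to 0.123). FBXL21 had at most 1 count in any library.

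Factors of the HIF pathway, from the same protein family, were measured beside the clock genes. ARNT, which pairs with the HIF α-subunits, was at 30.3 ± 2.12 and 30.1 ± 2.40 CPM in normoxic and hypoxic PC3 and at 42.1 ± 1.75 and 42.0 ± 1.80 in HCT116. The α-subunit gene HIF1A was at 665 ± 77.3 CPM in normoxic and 458 ± 22.0 in hypoxic PC3 and at 214 ± 7.47 and 136 ± 6.42 in HCT116. EPAS1, the gene of another α-subunit, was at 274 ± 32.3 and 337 ± 51.9 CPM in PC3 and at 22.4 ± 2.45 and 28.6 ± 2.93 in HCT116. In the edgeR test HIF1A fell in PC3 (log2 fold change -0.53, adjusted p = 0.00630) and in HCT116 (-0.63, adjusted p = 4.86e-05). EPAS1 rose in HCT116 (0.37, adjusted p = 0.0159) but did not pass in PC3 (0.31, adjusted p = 0.156), and ARNT passed in neither line. These are RNA levels, whereas immunoblots in the paper showed HIF-1α and HIF-2α protein induced by hypoxia.

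Over all 14 libraries, the 5 genes whose log2 CPM followed that of BHLHE40 most closely were ZNF654 (Pearson's r = 0.987), HK2 (0.985), LDHA (0.981), BSPRY (0.981) and MOB3A (0.975), among 12637 genes compared. HK2 and LDHA encode enzymes of glycolysis. The correlations are a description, and they carry the difference between the lines and between the conditions together, since the 14 points form 4 groups. Their log2 fold changes in hypoxia were 0.46 to 0.9988 in PC3 and 1.09 to 1.98 in HCT116, and HK2 had the highest of the 5 in both lines.

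Replicates of a group also differed from each other. In normoxia PC3 replicate 1 stood apart over all genes and not in the clock genes alone. The chi-square per gene of its counts there was 96.4 to 169 against the other 3 libraries, beside 10.6 to 35.8 among those 3. In hypoxia it was 85.2 to 220, but replicate 4 stood as far apart (88.9 to 220), beside 13.4 between replicates 2 and 3. The deviations of both libraries of replicate 1 correlated at 0.69 across genes, which are not independent replicates. The libraries of PC3 replicate 1 were the lowest of their group in 12 of 18 clock factors (those with more than 10 counts in every library of the group) in normoxia and in 9 of 18 in hypoxia, where 43.3% and 36.1% of all genes with such counts were lowest in them. The 9 genes lowest there in both conditions were PER1, PER2, PER3, DBP, TEF, BHLHE41, NPAS2, ARNTL2 and C1orf51. The normoxic library of that number held 9.16 CPM of PER2 against 13.2 to 14.5 in the other 3 libraries, and TEF at 5.02 against 7.67 to 9.91. In hypoxia they were at 9.02 against 12.4 to 13.9 and at 6.01 against 8.35 to 14.4. DBP and TEF, like the PER genes, are known targets of CLOCK and ARNTL. Expressed as deviation from the mean log2 CPM of the group, replicate 1 was at -0.43 for PER1, -0.46 for PER2, -0.50 for PER3, -0.61 for DBP and -0.58 for TEF in normoxia. NFIL3 deviated by 0.21, BHLHE40 by 0.18 and NR1D1, which CLOCK and ARNTL also switch on, by 0.07 in that library. At the other end, normoxic PC3 replicate 4 was the highest of its group in 13 of 18, and in 30.1% of all genes with such counts.

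In HCT116, normoxia replicate 3 was the lowest library of its group in 13 of the 17 clock factors with more than 10 counts and the highest in 3, which were ARNTL, CRY1 and NFIL3. Over all genes with such counts it was the lowest in 40.9% and the highest in 32.8%, and its chi-square per gene against the other libraries was 74.2 and 100.2, beside 19.6 between those. PER1 deviated by -0.27, PER2 by -0.36, NR1D1 by -0.38 and DBP by -0.60, while ARNTL was at 0.13 and CRY1 at 0.17. The hypoxic replicate 3 was the lowest of its group in 8 of 17, and in 31.9% of all genes. DBP and TEF did not pass the threshold in either line, and for PER2 the deviations of these single libraries (-0.46 in PC3 and -0.36 in HCT116) were larger in size than its log2 fold changes in hypoxia. These genes and libraries were picked out after their values had been seen, and the cause of the deviations was not tested. Without HCT116 normoxia replicate 3, the log2 fold change in HCT116 was 0.12 for NR1D1, 0.18 for PER1, 0.04 for PER2 and -0.32 for CRY1, against 0.30, 0.31, 0.21 and -0.41 with it. Without both libraries of replicate 1, the response of BHLHE40 in PC3 was 1.73 (adjusted p = 0.00210), that of PER1 0.23 (0.225) and that of PER3 -0.50 (0.0784).

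**Figure D5:**
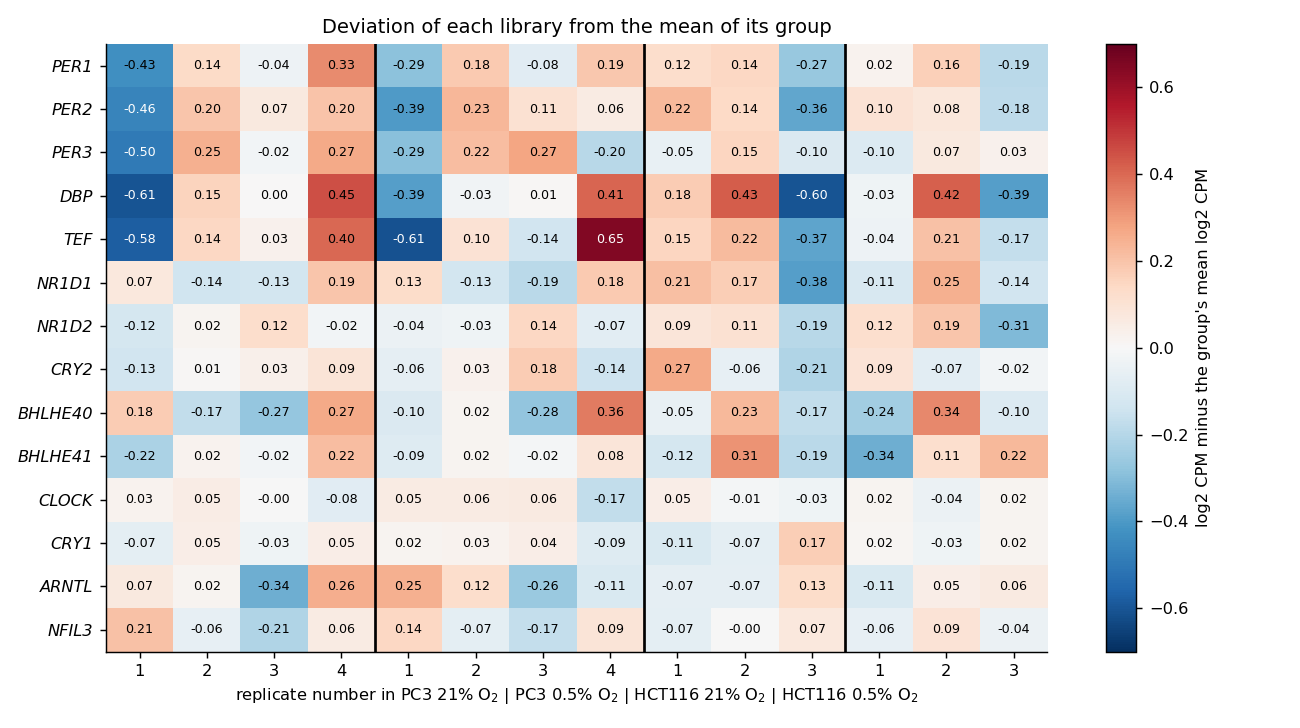
Deviation of each library's log2 CPM from the mean log2 CPM of its group, for 10 clock genes and 4 further factors (rows), in the 14 libraries (columns, by replicate number within the 4 groups). Blue is below and red above the mean of the group. PER1, PER2, DBP and TEF are low in both libraries of PC3 replicate 1 and in HCT116 normoxia replicate 3.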

How the data were processed

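The authors deposited raw counts, one set per library, with no normalisation. According to the study's methods and the submitters' processing notes, reads were aligned with HISAT2 (version 2.05) to the ERCC spike-in and then to GRCh37, and HTSeq (0.5.4p3, intersection-strict mode) gave the counts of reads within each RefSeq gene. The RefSeq release and the use of strand are not given in the sources used here. The authors scaled their libraries by the ERCC reads, which were not used here.

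Counts were tested with edgeR (version 4.0.16, R 4.3.3): filterByExpr, TMM scaling and the two-sided quasi-likelihood test, within each line, for the interaction over all 14 libraries, and between lines within each condition. Standard errors were obtained as the log2 fold change over the root of F. TMM takes most genes as unchanged, so a change of total mRNA would not show. The floor of a library, 3 counts, was 0.0201 to 0.0445 CPM on the TMM scale and covers counting error only. Replicates of a group differed by a chi-square of at least 10.6 per gene, so each was counted once. RPKM used exon lengths of GENCODE (GRCh37), and promoters and motifs used RefSeq windows, found for all 10 genes. The tests were checked on simulated counts. The library titles give replicate numbers and name no pairing. In PC3 the deviations of same-numbered libraries from the condition means correlated across genes at 0.692, 0.280, 0.152 and 0.295 for numbers 1 to 4. Libraries of unlike number correlated there at up to 0.210, and normoxia 2 with hypoxia 3 at 0.146. In HCT116 the same-numbered values were 0.0920, 0.152 and 0.0354, and the others reached 0.00939. Each library correlated best with the one of its own number in both lines.

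The alternatives were median-of-ratios and total-count scaling, DESeq2 (version 1.42.0), no filter, at least 10 counts in every library, the replicate block, one fit over both lines, each library left out, and the length of the longest transcript. Leaving out both PC3 libraries of replicate 1 was added after the values had been seen. The genes, lists and tests were chosen with earlier results of these data known. All 10 genes are named, and a gene of the 2 further lists where it passed the threshold in a line or was at the floor. The 5 genes most like BHLHE40 were taken by their correlation. NPAS2, ARNTL2, DBP, TEF and C1orf51 were named after their values were seen. A few genes of the lists and markers are not reported here and are left out of their counts.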

Additional observations from a re-analysis of the deposited data

Results flagged for a closer look

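The rise of BHLHE40 in hypoxia was smaller in PC3 than in HCT116, with a difference of -1.54 on the log2 scale (SE 0.247, adjusted p = 0.00393, edgeR test of the interaction), and all 7 hypoxic libraries were above the normoxic libraries of their line. BHLHE41 had a difference of -0.96 (SE 0.199, adjusted p = 0.0200 by the same test), and without HCT116 normoxia replicate 1 or 3 or hypoxia replicate 2 or 3 its adjusted p was 0.0667, 0.0702, 0.0598 and 0.0547. A smaller rise in PC3 was not particular to these genes. Of the 6 hypoxia reference genes, PDK1 (-2.26), ANKRD37 (-1.76) and CA9 (-4.35) were called with a more negative response in PC3 and 0 with a more positive one, with a median of -1.24 over the 6.

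CLOCK in hypoxic PC3 replicate 4 was at 217 CPM, far from the other 3 libraries at 253.8 to 254.8. It was the 1 such value among 44 groups of 4 PC3 libraries, over the genes named with a test, where chance at 1 in 20 would give 2.2. Without this library the log2 fold change of CLOCK in PC3 was 0.27 (adjusted p = 0.0162 in edgeR). The same library stood apart over all genes, with a chi-square per gene of 88.9 to 220 against the other hypoxic PC3 libraries. Between replicates 2 and 3 it was 13.4, and replicate 1 stood as far apart (85.2 to 220). Among genes with at least 11 counts in each library of the group, replicate 4 was lowest in 35.8% and highest in 36.6%. Low values in this library were thus not particular to CLOCK.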

How the results depend on the processing

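Of 46 log2 fold changes past the threshold, 37 kept their call under every alternative run on them and 0 changed sign. BHLHE40 was past the threshold under every alternative in either line and in the interaction, and its difference between the lines in hypoxia was the one of its calls that was lost. Total-count scaling moved the median of all genes to -0.10 on the log2 scale in PC3 and -0.09 in HCT116, and the share of called genes that were higher to 24.5% and 29.0%, from 53.3% and 56.3%.

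With total-count scaling PC3 had 1 of the 10 clock genes higher, and 562 genes higher and 1733 lower, and HCT116 had 1286 and 3146. DESeq2 gave 1383 higher and 1185 lower in PC3, and in the interaction 2 clock genes (ARNTL and CRY1) and 466 genes more positive and 512 more negative. Without a filter 1 clock gene was higher in PC3, with 745 genes higher and 618 lower, and without both PC3 libraries of replicate 1 also 1, with 1007 and 776. The fit over both lines gave 1246 lower genes in PC3, and 938 higher and 795 lower genes with 1 clock gene lower in HCT116.

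With the replicate block, PC3 had 4 clock genes higher and 2125 genes higher and 1949 lower, HCT116 had 5 clock genes higher, with PER1 (adjusted p = 0.00731) and NR1D1 (0.0391) added, and 2098 genes higher and 1656 lower, and the interaction had 2 clock genes and 597 genes more positive and 710 more negative. In both lines the replicates share only a number in the labels, and each normoxic library correlated best with the hypoxic one of its own number. The block changed no other call of the 10 genes.

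Leaving out single libraries, PC3 had 1 to 2 clock genes higher, 364 to 1143 genes higher and 189 to 942 lower. The lowest counts of PC3 genes came without normoxia replicate 3 (364 and 189), normoxia replicate 2 (372 and 202), hypoxia replicate 2 (453 and 275) and normoxia replicate 4 (546 and 362). HCT116 had 3 to 4 clock genes higher, 1378 to 1853 genes higher and 1068 to 1486 lower. In the interaction 0 to 1 clock genes were more positive and 1 to 2 more negative, with 78 to 294 and 94 to 423 genes. The interaction of BHLHE41 was lost without any of 4 HCT116 libraries (adjusted p up to 0.0702). Between the lines, 4 to 5 clock genes were higher in PC3 in hypoxia.

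Signs changed only where values were near 0 and not past the threshold. CRY2 was at 0.00025 in PC3 with median-of-ratios scaling and 0.0024 with DESeq2, in HCT116 at -0.0017, -0.085 with total-count scaling, -0.0016 with DESeq2 and -0.0079 in one fit, and in the interaction at 0.0091 with median-of-ratios scaling and 0.0098 with DESeq2. NR1D1 was at -0.015 in PC3 with total-count scaling, and PER3 at 0.022 between the lines in normoxia. On leaving out single libraries CRY2 ranged from -0.057 to 0.043 in PC3, from -0.10 to 0.14 in HCT116 and from -0.15 to 0.10 in the interaction. PER1 (-0.16 to 0.085) and PER3 (-0.016 to 0.22) changed sign in the interaction, CRY1 (-0.038 to 0.0089) and PER2 (-0.22 to 0.019) in PC3, and PER2 (-0.047 to 0.25) and PER3 (-0.15 to 0.065) between the lines in normoxia and PER3 (-0.023 to 0.17) in hypoxia. The cause was not tested.

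A single time point holds no rhythm, so a change of level and a shift of phase cannot be told apart. Genes on the opposite strand that share exons limit NR1D1 and PER3, and low counts limit RORA, RORB and FBXL21.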
